A study of Mus musculus with 20 samples.

Results

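The genes H2-Aa, H2-Ab1, H2-Eb1, H2-DMa, H2-DMb1 and Cd74 of the major histocompatibility complex (MHC) class II antigen presentation pathway were followed in the mouse prostate after castration and after testosterone. All probe sets with 1 of these 6 symbols as their only gene symbol were taken, which gave 7 of the 10833 probe sets with a single symbol and 6 of 8251 genes. H2-DMa had 2 of them and every other gene had 1. Of the 7, 6 were bright enough to be tested (a signal of more than 191, the overall median, on 5 or more of the 20 arrays), as were 6911 of the 12422 probe sets that are not controls. H2-DMb1 exceeded that signal on 15 arrays, none of them sham, and the other 5 genes on all 20. H2-DMb1 was therefore tested only through the groups where it is high, so its folds against sham rest on dim signals and its counts against sham support nothing by themselves. The prostates came from C57/B6 mice of 10 to 12 weeks, with 5 mice and 1 Affymetrix array per mouse in each of 4 groups. The groups were sham-treated mice, mice castrated 3 days before collection, mice castrated 14 days before collection, and mice that were castrated, received a testosterone pellet of 15 mg at 14 days and were collected after 3 more days (the testosterone group). The time between sham treatment and collection is not stated in the labels, which carry the code N3 for that group. The mice carried no transgene that the labels name, and the testosterone mice had been castrated like those of the 14-day group.

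MHC class II molecules present peptides from proteins taken up by a cell to CD4+ T cells. An alpha and a beta chain pair in the endoplasmic reticulum and travel with the invariant chain, encoded by Cd74, which blocks the peptide groove and directs the complex to endosomes. There the invariant chain is cut down by proteases such as cathepsin S, and the H2-DM heterodimer exchanges the last fragment for antigen peptides. The pathway is best known in dendritic cells, macrophages and B cells, and interferon gamma can induce it in epithelial and other cells through the transactivator CIITA. C57BL/6 mice do not make the H2-E alpha chain, so that H2-Eb1 is transcribed in them but its product lacks its usual partner.

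Array medians lay between 154 and 224. On 4 arrays (replicates 4 and 5 of the 14-day group and replicates 2 and 5 of the testosterone group) the log2 ratio of the 3' to the 5' Gapdh control probe sets, a measure of RNA quality, was 1.82 to 4.54, against -0.53 to -0.08 on the other 16. All calls on the 6 tested class II probe sets were the same without these 4 arrays. The running numbers in the array titles follow the groups, so a batch cannot be told apart from treatment. The prostate label was borne out by probasin, an androgen-driven secretory protein, whose gene Pbsn had signals of at least 3786 on every array, and by the prostate homeobox gene Hoxb13, with signals of at least 1351. In whole tissue, more cells of a type and more RNA per cell cannot be told apart.

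The paired chains of the class II molecule were measured by H2-Aa and H2-Ab1, which encode the alpha and beta chain of H2-A, and by H2-Eb1, which encodes the beta chain of H2-E. H2-Aa had signals of 618, 590, 480, 427 and 546 in sham prostates, 964, 1118, 1030, 1063 and 1087 at 3 days of castration, 5714, 3889, 3134, 5121 and 5569 at 14 days, and 1131, 811, 782, 598 and 744 in the testosterone group. Every array of both castrated groups lay above all sham arrays, and 1 of 5 testosterone arrays overlapped the sham range. H2-Ab1 had signals of 388, 403, 241, 228 and 247 in sham prostates, 581, 736, 549, 557 and 782 at 3 days, 3720, 2276, 1852, 2859 and 2628 at 14 days, and 763, 571, 620, 405 and 621 in the testosterone group. Here the testosterone arrays also lay above all sham arrays, the lowest by a small margin. H2-Eb1 had signals of 880, 856, 736, 749 and 842 in sham prostates, 726, 1015, 803, 904 and 939 at 3 days, 5605, 4287, 3503, 5060 and 5829 at 14 days, and 974, 1023, 703, 662 and 737 in the testosterone group. The 14-day arrays of H2-Eb1 stood apart, while the other 3 groups overlapped.

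The invariant chain gene Cd74 had signals of 1892, 2127, 1602, 1572 and 1746 in sham prostates, 3563, 3900, 3308, 3460 and 3904 at 3 days, 9605, 7704, 5907, 10183 and 8972 at 14 days, and 3561, 3071, 2655, 1745 and 3376 in the testosterone group. Both castrated groups lay above sham and apart from each other, and the lowest testosterone array, replicate 4, fell within the sham range. H2-DMa and H2-DMb1 encode the chains of the peptide exchanger H2-DM. The brighter H2-DMa probe set had signals of 426, 550, 502, 462 and 407 in sham prostates, 706, 816, 789, 846 and 871 at 3 days, 1856, 1453, 1335, 1566 and 1560 at 14 days, and 950, 804, 830, 555 and 707 in the testosterone group. H2-DMb1 had signals of 65.4, 68.0, 59.2, 137 and 71.1 in sham prostates, 205, 227, 216, 333 and 217 at 3 days, 691, 593, 373, 383 and 455 at 14 days, and 374, 251, 310, 264 and 248 in the testosterone group. For both H2-DM genes all testosterone arrays lay above all sham arrays, and for H2-DMb1 the highest testosterone array, replicate 1, overlapped the 14-day group.

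**Figure D1:**
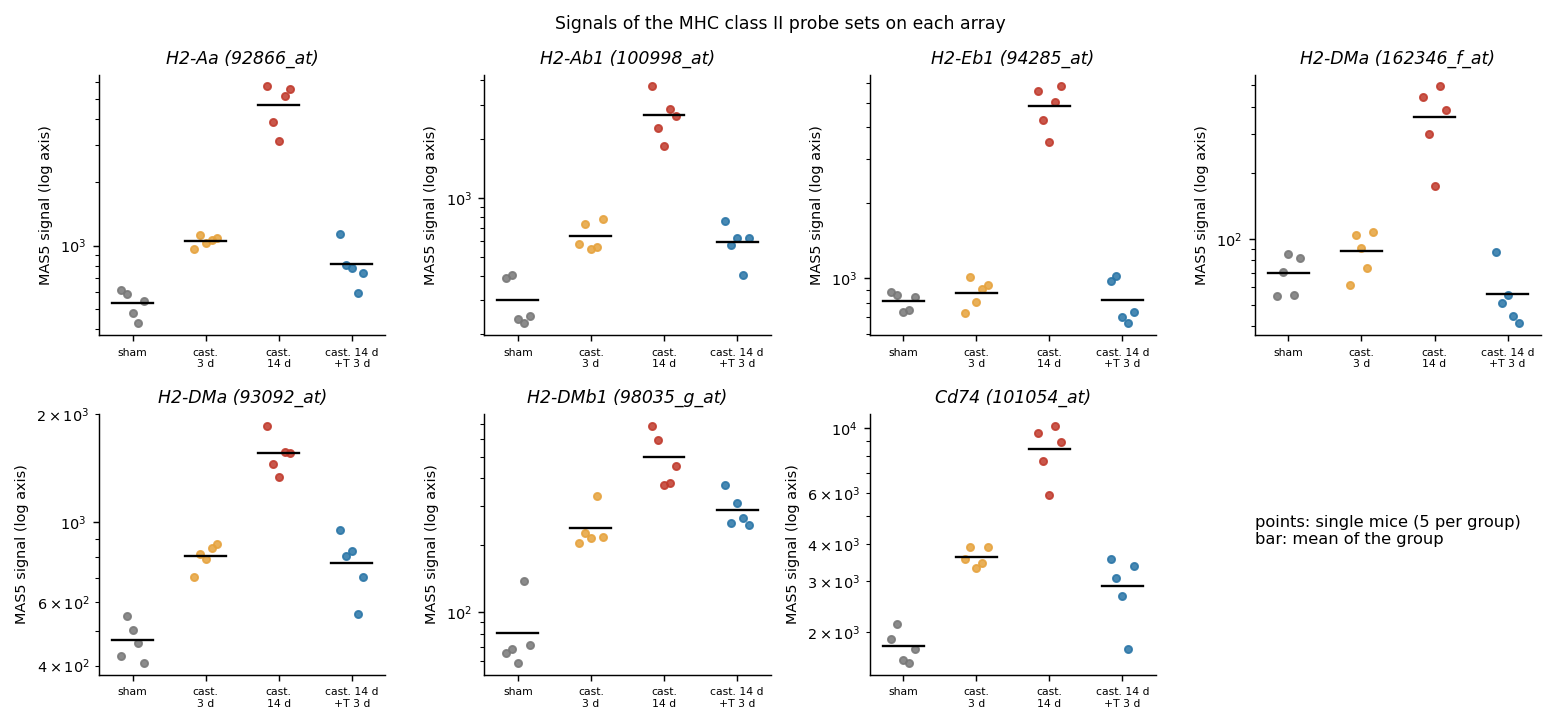
Signal of the 7 probe sets of the class II genes (log axis, arbitrary units) on each of the 20 arrays. They are the 6 tested probe sets and the dimmer H2-DMa probe set, which was not tested. Points are mice and bars are means of 5. The label cast. stands for castrated and +T for the testosterone pellet. Every gene has its highest mean in the group castrated for 14 days, and H2-Eb1 has sham, 3-day and testosterone arrays that overlap between 662 and 1023.

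The remaining H2-DMa probe set exceeded the minimum signal on 4 arrays and was not tested. Its signals were 55.0 to 85.6 in sham prostates, 61.4 to 108 at 3 days, 175 to 495 at 14 days and 41.1 to 87.2 in the testosterone group. Its 14-day arrays stood above all others, as did those of the tested H2-DMa probe set, but its testosterone arrays overlapped sham. In a fit of all probe sets without the filter its log2 change was 2.11 at 14 days against sham (adjusted p = 1.18e-06) and -0.28 in the testosterone group against sham (adjusted p = 0.340), so that the H2-DMa probe sets disagreed on the level that remained after testosterone. A further probe set carries the symbols of both H2-DMb1 and its close paralog H2-DMb2 and was therefore not counted. It had signals of 159 to 272 at 14 days and 39.4 to 75.4 after testosterone, against 7.7 to 29.0 in sham prostates. The probe set named for H2-DMb2 alone was not tested either, with signals of 16.8 to 324 over all arrays, and transcripts of the H2-DMb paralogs may share probes.

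At 3 days of castration 5 of the 6 tested class II genes rose against sham, and H2-Eb1 did not pass the test. Called means a Benjamini-Hochberg adjusted p under 0.05 in limma over all 6911 probe sets tested. Of those, 9.84% were called higher in this comparison, and 8.77% were higher with no overlap between the groups, as were the same 5 genes. Cd74 rose 2.03-fold (log2 change 1.02, SE 0.17, adjusted p = 0.000531), to 3627 ± 267 at 3 days against 1788 ± 229 in sham prostates (SD, n = 5 each). H2-DMb1 had a mean signal of 240 ± 52.7 at 3 days and 80.2 ± 32.3 in sham prostates, where all 5 arrays were below the filter signal of 191 (log2 change 1.48, adjusted p = 8.14e-05). The log2 changes of H2-Ab1, H2-Aa and H2-DMa were 1.08, 0.98 and 0.77, with adjusted p of 0.00125, 0.000657 and 0.000478. For H2-Eb1 the log2 change was 0.10 (95% interval -0.20 to 0.41, adjusted p = 0.702), with means of 877 ± 114 at 3 days and 812 ± 65.6 in sham prostates. The median log2 change of the 6 genes was 1.0, against 0.04 over all probe sets tested.

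At 14 days of castration all 6 genes were called higher than in sham prostates, with no overlap between the groups for any of them. Over all probe sets tested 28.6% were called higher and 19.4% were higher without overlap. H2-Ab1 and H2-Aa rose most, 8.55-fold and 8.48-fold, and ranked 19 and 20 among all 6911 probe sets by the size of the rise. H2-Aa averaged 4685 ± 1126 at 14 days and 532 ± 78.7 in sham prostates, a log2 change of 3.08 (SE 0.17, adjusted p = 6.17e-11). H2-Eb1 averaged 4857 ± 962 at 14 days and 812 ± 65.6 in sham prostates, a log2 change of 2.54 (adjusted p = 1.14e-10). Cd74 rose 4.66-fold and H2-DMa rose 3.25-fold, with adjusted p of 4.08e-09 and 2.84e-09. H2-DMb1 averaged 499 ± 139 at 14 days and 80.2 ± 32.3 in sham prostates, all 5 of the sham arrays again below the filter (adjusted p = 9.69e-09). The median log2 change of the 6 genes was 2.51, against 0.01 over all probe sets tested.

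Between 3 and 14 days of castration all 6 genes rose, with no overlap between the groups. Of all probe sets tested, 20.2% were called higher and 16.1% were higher without overlap. H2-Eb1 had the largest change of the 6, with a mean of 4857 ± 962 at 14 days and 877 ± 114 at 3 days (log2 change 2.44, SE 0.15, adjusted p = 3.61e-10). The log2 changes of H2-Aa and H2-Ab1 were 2.11 and 2.01, and those of Cd74, H2-DMb1 and H2-DMa were 1.20, 1.0 and 0.93. The tested probe sets thus differed in how much of the 14-day rise in mean signal was already there at 3 days. That share was 38.1% for H2-DMb1, 31.0% for H2-DMa, 27.5% for Cd74, 14.4% for H2-Ab1, 12.5% for H2-Aa and 1.60% for H2-Eb1. On the dimmer H2-DMa probe set it was 6.13%, so the place of H2-DMa in this order depends on the probe set. The share of H2-DMb1 rests on sham signals below the filter.

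In the testosterone group all 6 genes were called lower than at 14 days of castration, and for 5 of them the groups did not overlap. No castrated mice without a testosterone pellet were collected as late as this group. Testosterone, the pellet procedure and the 3 more days therefore cannot be told apart. Of all probe sets tested, 26.6% were called lower in this comparison and 18.2% were lower without overlap. The median of all probe sets tested was itself shifted, by -0.10 on the log2 scale (0.09 when each array was centred on its median), and the median of the 6 genes was -1.85. H2-Eb1 averaged 820 ± 166 in the testosterone group and 4857 ± 962 at 14 days, a log2 change of -2.55 (SE 0.15, adjusted p = 1.09e-10). H2-Aa averaged 813 ± 196 in the testosterone group and 4685 ± 1126 at 14 days (log2 change -2.50, adjusted p = 8.79e-10). The log2 changes of H2-Ab1, Cd74 and H2-DMa were -2.13, -1.57 and -1.02. H2-DMb1 changed least, averaging 289 ± 53.2 in the testosterone group and 499 ± 139 at 14 days, a log2 change of -0.74 (SE 0.20, adjusted p = 0.00590). That call was lost under quantile normalization (log2 change -0.57, adjusted p = 0.0564) and was made without the 4 arrays of high Gapdh ratio (log2 change -0.75, adjusted p = 0.0350).

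Against sham prostates, 5 of the 6 genes were still called higher in the testosterone group, 3 of them with no overlap, and H2-Eb1 was not called. Of all probe sets tested, 23.5% were called higher and 15.4% were higher without overlap. H2-DMb1 had means of 289 ± 53.2 in the testosterone group and 80.2 ± 32.3 in sham prostates (log2 change 1.74, SE 0.20, adjusted p = 1.31e-06), and since all 5 sham arrays were below the filter the size of that difference is uncertain. H2-Ab1 was 1.96-fold higher and H2-DMa (by the brighter probe set) 1.61-fold higher (adjusted p = 0.000555 and 0.000188). Cd74 and H2-Aa were called with overlapping groups, at log2 changes of 0.65 and 0.58 (adjusted p = 0.00358 and 0.00678). H2-Eb1 averaged 820 ± 166 in the testosterone group and 812 ± 65.6 in sham prostates, a log2 change of -0.01 (95% interval -0.31 to 0.30, adjusted p = 0.974). Written as the share of the 14-day rise in mean signal that was gone in the testosterone group, the values were 99.8% for H2-Eb1, 93.2% for H2-Aa, 87.5% for H2-Ab1, 83.6% for Cd74, 72.4% for H2-DMa and 50.1% for H2-DMb1. On the dimmer H2-DMa probe set the share was 105%, so the place of H2-DMa in this order depends on the probe set as well.

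**Figure D2:**
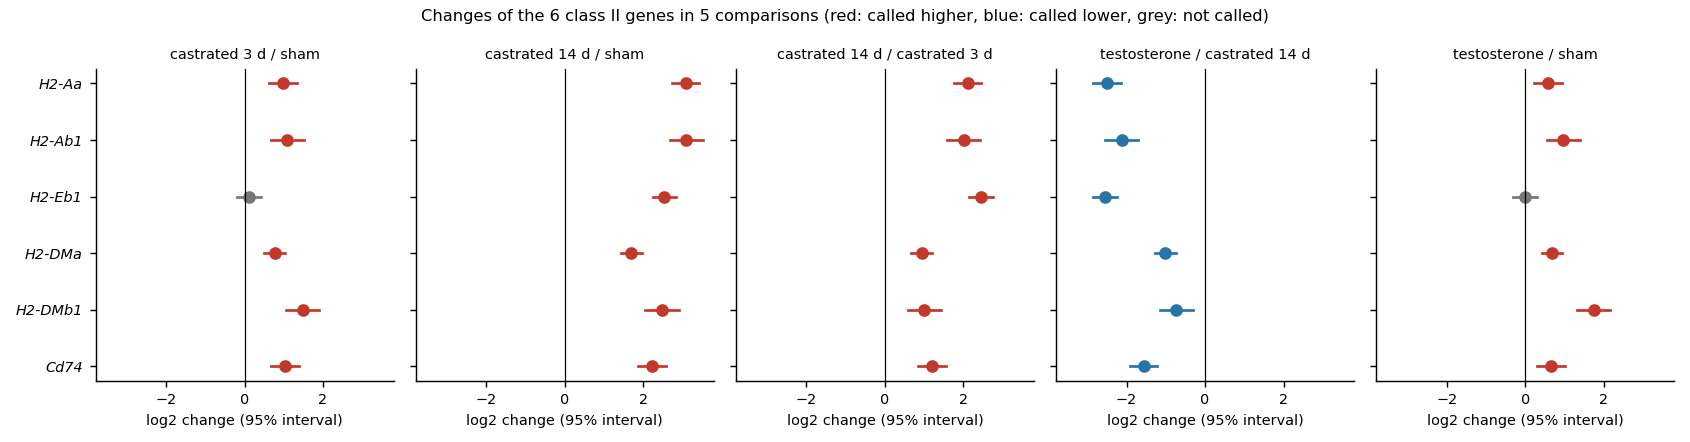
Log2 change of the 6 tested class II genes in the 5 comparisons (x axis), with 95% intervals from limma; red is called higher, blue called lower and grey not called, and testosterone stands for mice castrated 14 days and given the pellet. H2-Eb1 is grey at 3 days against sham (0.10) and in the testosterone group against sham (-0.01).

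Whether the 6 genes changed by unequal amounts was tested with 1 probe set per gene. For each pair of genes the log2 gap between them was taken within each array, and the gaps of the groups were compared with an exact two-sided permutation test over all splits of 5 against 5 arrays, whose smallest p is 0.00794. Over 15 pairs and 5 comparisons, 46 of 75 gaps differed at an adjusted p under 0.05 (Benjamini-Hochberg over the 75). The size of a gap between different probe sets has no meaning of its own, and only its change between groups is read here. That change can also depend on the probe set. In the testosterone group against 14 days the log2 change was -1.02 on the tested H2-DMa probe set. On the dimmer H2-DMa probe set, fitted without the filter, it was -2.40. Unequal response of probe sets was therefore not separated from unequal change of genes. At 3 days against sham 5 gaps differed, and all 5 involved H2-Eb1. For example, H2-Aa gained 0.87 log2 units on H2-Eb1 (exact permutation p = 0.00794, adjusted p = 0.0153). The gap of H2-Eb1 over H2-DMb1 changed by -1.37. H2-DMb1 was tested only through the groups where it is high, so changes of its gaps against sham support nothing by themselves. The counts of gaps against sham include them.

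At 14 days against sham 9 gaps differed. The gap of H2-Aa over H2-Ab1, the H2-A chains, changed by -0.01 there (exact permutation p = 0.897). H2-Aa gained 1.38 log2 units on H2-DMa and 0.86 on Cd74, both with an adjusted p of 0.0153 from the exact permutation test. In the testosterone group against 14 days of castration 12 gaps differed. The H2-A chains came apart in this comparison, with a change of -0.37 in the gap of H2-Aa over H2-Ab1 and gaps of 0.26 to 0.56 in the testosterone group and 0.62 to 1.08 at 14 days (exact permutation p = 0.00794, adjusted p = 0.0153). H2-Aa lost 1.77 log2 units to H2-DMb1, a change of -1.77 (exact permutation p = 0.00794), while its gap over H2-Eb1 changed by 0.05 (exact permutation p = 0.675). The gap of H2-DMa over H2-DMb1, which encode partner chains, changed by -0.28 in that comparison (exact permutation p = 0.127). Between the testosterone group and sham 9 gaps differed. Among them was that of H2-Eb1 over H2-DMb1, which changed by -1.75 and has the same limit, since H2-DMb1 was below the filter in sham prostates. Between 14 and 3 days 11 differed. Without the 4 arrays of high Gapdh ratio 28 of the 75 gaps differed, and none of the 15 between the testosterone group and 14 days, where 3 against 3 arrays cannot give a p below 0.1.

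**Figure D3:**
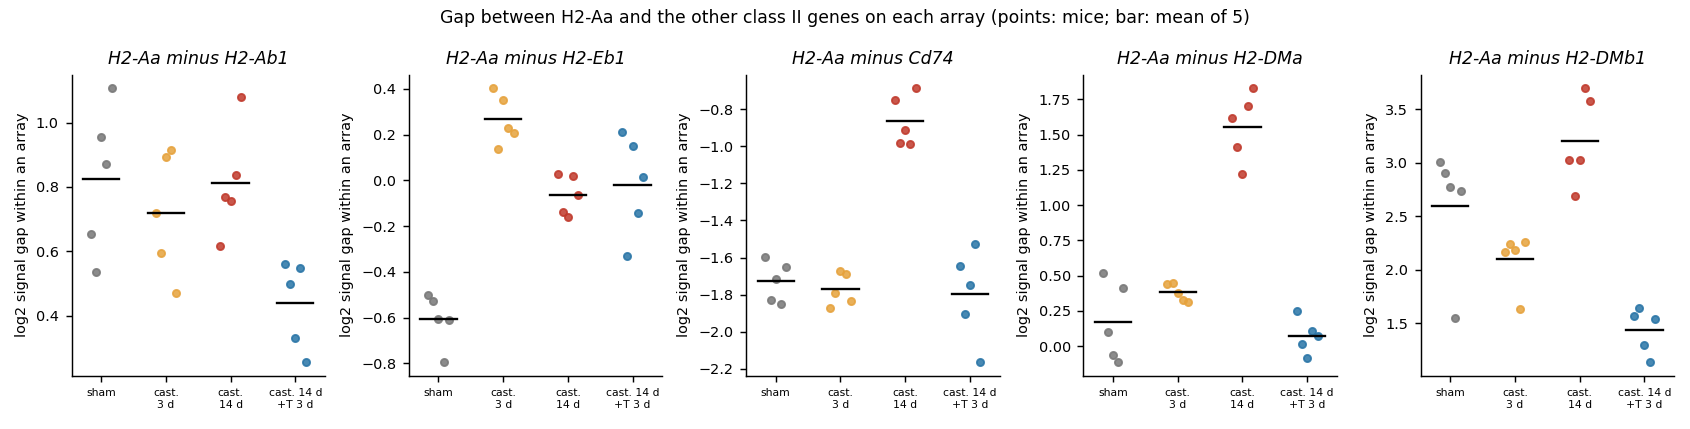
Log2 gap of H2-Aa over each other class II gene within each array (y axis), by group, with points for mice and bars for means of 5; cast. stands for castrated and +T for the testosterone pellet. The gap over H2-Eb1 is higher on all 3-day arrays (0.14 to 0.40) than on all sham arrays (-0.79 to -0.50), and the gap over H2-DMa is highest at 14 days (1.22 to 1.83).

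Over the 20 arrays each tested probe set was correlated with the mean of the other 5 genes, as a description of arrays that share their groups. Pearson's r was 0.80 for H2-DMb1, 0.89 for H2-Eb1 and 0.97 to 0.99 for the other 4. After the group means were removed, r was 0.17 for H2-DMb1 and 0.77 to 0.86 for the other 5. Within groups several genes had their extremes on the same mouse. In the 14-day group replicate 3 was lowest for 6 of 6 tested probe sets and replicate 1 highest for 4. In the testosterone group replicate 4 was lowest for 5 of 6 and replicate 1 highest for 5.

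The class II genes share a promoter module in which X and Y boxes are bound by the RFX complex, CREB family members and NF-Y, on which CIITA assembles. RefSeq windows of build GRCm38.p6, from 250 bases before to 50 bases after the transcription start, were searched on both strands for AGCAAC (the core of the X1 box), CGTCA (the core of the X2 box) and TGATTGG (the Y box). Windows were matched for 4 of the 6 genes, H2-Aa, H2-Eb1, H2-DMa and H2-DMb1. The 150 bases before the start are printed 5′ to 3′ for the 3 of them that held a motif, with the matches in capitals, because these genes differed in their time course, and for H2-Ob, whose probe set stayed below the filter.
H2-Aa, chr17:34287824-34287973, minus strand: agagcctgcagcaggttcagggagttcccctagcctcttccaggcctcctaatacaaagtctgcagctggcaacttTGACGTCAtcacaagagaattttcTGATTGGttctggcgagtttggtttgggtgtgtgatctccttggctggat
H2-Eb1, chr17:34305717-34305866, plus strand: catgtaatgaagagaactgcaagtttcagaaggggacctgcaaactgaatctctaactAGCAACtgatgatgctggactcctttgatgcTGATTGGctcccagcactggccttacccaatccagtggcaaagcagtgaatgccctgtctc
H2-DMb1, chr17:34153041-34153190, plus strand: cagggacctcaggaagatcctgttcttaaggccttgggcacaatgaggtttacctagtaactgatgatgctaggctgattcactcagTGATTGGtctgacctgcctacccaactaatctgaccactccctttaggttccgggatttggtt
H2-Ob, chr17:34238755-34238904, plus strand: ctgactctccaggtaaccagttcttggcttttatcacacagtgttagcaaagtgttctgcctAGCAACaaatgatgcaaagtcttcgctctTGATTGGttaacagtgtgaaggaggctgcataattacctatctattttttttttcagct
The capitals in H2-Aa mark CGTCA on both strands, overlapping by a few bases as TGACGTCA at 74 and 71 bases before the start, and TGATTGG at 50 bases before it. H2-Eb1 had AGCAAC at 92 and TGATTGG at 61 bases before the start, 31 bases apart. By exact match H2-DMb1 had TGATTGG alone, at 63 bases before the start, and neither window of H2-DMa held any of the 3 motifs. Variants of a motif were not searched, such as the agtaac ahead of the Y box in H2-DMb1. The windows of H2-DMa could not be tied to a canonical start. A missing match therefore does not show that a box is absent.

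Among all 32851 RefSeq windows, 14.8% held AGCAAC, 20.8% held CGTCA and 7.82% held TGATTGG. Both AGCAAC and TGATTGG were found in 1.37% of windows, and both CGTCA and TGATTGG in 1.90%. AGCAAC and TGATTGG were also present together in H2-Ob (29 bases apart), H2-Oa (32 bases apart) and H2-Eb2 (31 bases apart), whose probe sets were not tested because of low signal. H2-Eb1 and H2-Eb2 thus had the same spacing. The matches describe these windows only.

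The other genes of the class II pathway were taken as a list of 37 symbols, of which 28 were measured and 17 tested. At 3 days 5 of the 17 rose and 1 fell against sham. Of all probe sets tested, 9.84% were called higher and 4.46% lower there. At 14 days 12 rose and 2 fell against sham, with 28.6% of all called higher and 24.3% lower. In the testosterone group 10 of the 17 were lower and 1 higher than at 14 days, against 26.6% and 18.2% of all. Compared with sham prostates 6 were higher and 3 lower in that group, against 23.5% and 29.5% of all. Between 3 and 14 days 6 rose and 0 fell, with 20.2% of all called higher. Their median log2 changes in the first 4 of these comparisons were 0.35, 0.40, -0.37 and 0.05, smaller in size than those of the 6 class II genes. The 5 measured genes of other class II chains and peptide editors, H2-DMb2, H2-Ea, H2-Eb2, H2-Oa and H2-Ob, were all below the filter. H2-Ea, the alpha chain partner of H2-Eb1, is listed by RefSeq as a transcribed pseudogene and had signals of 4.8 to 63.6.

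Among the proteases that cut the invariant chain and antigens, Ctss, which encodes cathepsin S, was closest to the class II genes. It had signals of 694, 595, 594, 540 and 562 in sham prostates, 1522, 1793, 1684, 1489 and 1784 at 3 days, 4095, 3829, 3319, 5165 and 7260 at 14 days, and 1221, 1660, 1392, 1060 and 1324 in the testosterone group. No groups that were compared overlapped. Its log2 change was 2.91 at 14 days against sham (SE 0.16, adjusted p = 9.49e-11) and -1.78 in the testosterone group against 14 days (adjusted p = 5.55e-08). Lgmn, which encodes the asparagine endopeptidase legumain, rose by a log2 change of 1.74 at 14 days against sham and was still 2.01-fold higher than sham in the testosterone group (adjusted p = 6.48e-10 and 1.11e-06). At 14 days against sham, Ctsl, encoding cathepsin L, had a log2 change of 1.04, Ctsb, encoding cathepsin B, of 0.67, and Ctsd, encoding cathepsin D, of -0.50.

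Ifi30, which encodes the thiol reductase that opens disulfide bonds of antigens in endosomes, ran the other way. It had signals of 867, 667, 837, 828 and 553 in sham prostates, 518, 486, 461, 425 and 348 at 3 days, 557, 581, 367, 587 and 696 at 14 days, and 1086, 1824, 1346, 1238 and 1585 in the testosterone group. All 5 testosterone arrays lay above every other array. The log2 change of Ifi30 was 1.33 in the testosterone group against 14 days of castration (SE 0.17, adjusted p = 4.06e-06) and 0.90 against sham (adjusted p = 0.000251). At 3 days it was -0.72 against sham (adjusted p = 0.00778).

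Ciita, the gene of the class II transactivator, did not pass the filter, with signals of 35.0 to 183 over the 20 arrays. Its signals were 114 to 169 at 14 days of castration and 113 to 172 in sham prostates, so no rise beside that of its targets was seen on this probe set, and low signal limits what it can show. Of the transcription genes tested, 6 of 7 rose at 14 days against sham, where 28.6% of all probe sets tested were called higher, and 5 fell in the testosterone group against 14 days, where 26.6% were called lower. Irf1, an interferon-induced activator of Ciita, averaged 1079 at 14 days and 612 in sham prostates (log2 change 0.84, adjusted p = 2.94e-05), and had a log2 change of -1.02 in the testosterone group against 14 days. Irf8, a factor of the myeloid lineage, had log2 changes of 0.59 and -0.98 in these comparisons. The NF-Y subunit genes Nfya, Nfyb and Nfyc had log2 changes of 0.29, 0.34 and 0.40 at 14 days against sham. Ifng, the gene of interferon gamma, had signals of 1.2 to 40.3 and was not tested, the receptor genes Ifngr1 and Ifngr2 were not called in these comparisons, and Jak2, a kinase of that receptor, had a log2 change of 0.64 at 14 days against sham.

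**Figure D4:**
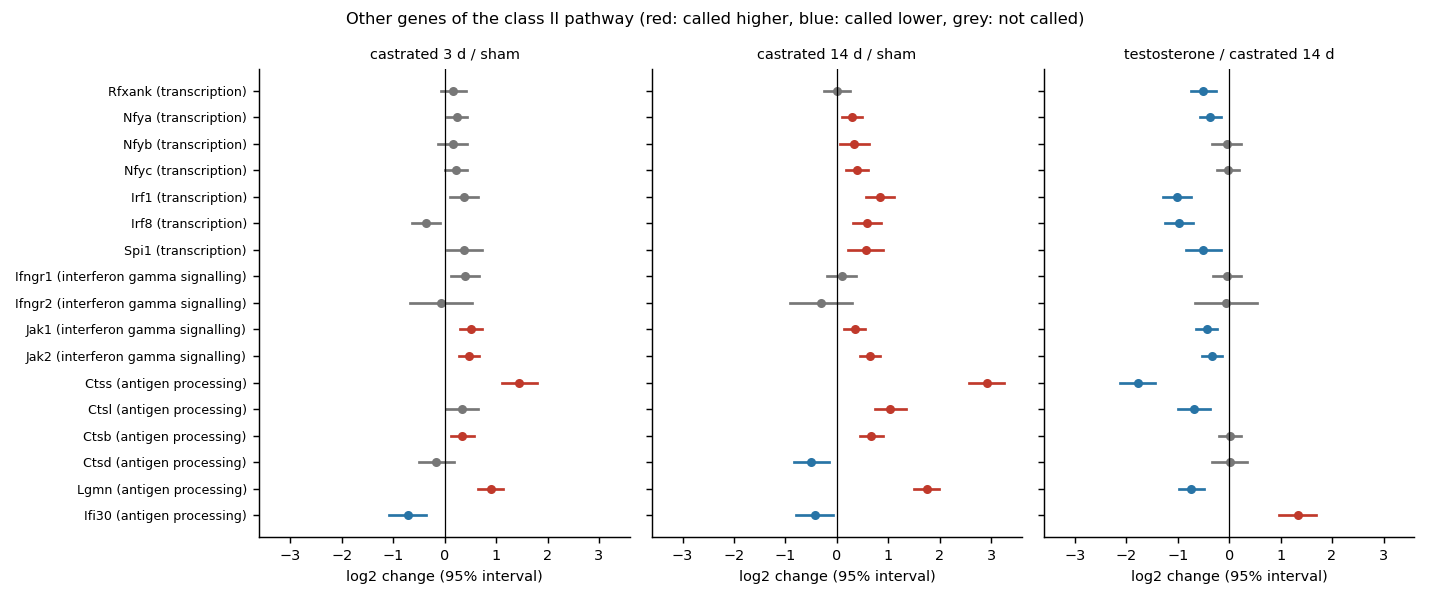
Log2 change of the 17 tested genes of the class II pathway outside the 6 class II genes (rows) in 3 comparisons (panels), with 95% intervals from limma; red is called higher, blue called lower and grey not called. Ctss follows the class II genes (2.91 at 14 days against sham), and Ifi30 is the 1 gene called higher in the testosterone group than at 14 days (1.33).

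The H2 genes lie on chromosome 17 in the MHC region, together with genes of the class I pathway, and Cd74 lies on chromosome 18. In the RefSeq order H2-DMb1 is followed by Psmb9, Tap1, Psmb8, Tap2 and H2-Ob, and further on come H2-Ab1, H2-Aa and H2-Eb1. Psmb9 and Psmb8, which encode subunits of the immunoproteasome, had log2 changes of 1.93 and 1.88 at 14 days against sham (adjusted p = 7.13e-10 and 8.46e-09) and of -0.77 and -0.88 in the testosterone group against 14 days. Tap1, a chain of the peptide transporter, had log2 changes of 0.89 and -0.54 in these comparisons. Tap2, its other chain, was not called at 14 days against sham (log2 change 0.09). It was called lower in the testosterone group than at 14 days (log2 change -0.38). Brd2, a chromatin reader gene beside H2-DMa, was lower than sham in every other group, with log2 changes of -0.50 at 3 days, -0.63 at 14 days and -0.73 in the testosterone group. The genes within the class II interval therefore did not all change in the same direction.

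Marker lists of leukocytes and of other cells of the tissue were read beside these results. Of 18 macrophage and myeloid genes, 12 were tested. At 3 days 9 of the 12 rose against sham, where 9.84% of all probe sets tested were called higher, and at 14 days 10 rose, where 28.6% were. In the testosterone group 10 were lower than at 14 days and 9 higher than in sham prostates, against 26.6% and 23.5% of all probe sets tested. The summed signal of the 18 genes was 3850 to 5170 in sham prostates, 7957 to 9501 at 3 days, 13160 to 18593 at 14 days and 6508 to 9244 in the testosterone group. Csf1r, the receptor of a macrophage growth factor, had log2 changes of 2.10 at 14 days against sham and -1.16 in the testosterone group against 14 days. Lyz2, encoding lysozyme, had log2 changes of 2.44 and -1.18, and Mpeg1, encoding a pore-forming protein of macrophages, 2.00 and -2.13. Cx3cr1, a chemokine receptor gene, was not called in either comparison, with log2 changes of -0.23 and -0.13. The 6 genes below the filter did not move together. At 14 days Adgre1, which encodes F4/80, had 140 to 299 and Fcer1g, an Fc receptor chain gene, 24.0 to 106, against 14.1 to 28.5 and 8.4 to 23.2 in sham prostates. Itgam, Msr1, Fcgr3 and Marco overlapped between the 14-day and sham groups, with means of 12.6, 47.2, 68.2 and 8.42 at 14 days and 20.5, 76.4, 67.1 and 13.3 in sham prostates.

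The dendritic cell genes moved in both directions. Of 11 measured 5 were tested, and at 14 days against sham 1 rose (Itgax, encoding CD11c, log2 change 0.69) and 1 fell (Flt3, a receptor of dendritic cell progenitors, log2 change -0.80), against 28.6% called higher and 24.3% called lower over all probe sets tested. Itgax was lower again in the testosterone group than at 14 days (log2 change -1.03). Below the filter, Cd83 had 118 to 190 at 14 days, apart from 15.7 to 61.2 in the testosterone group and 10.8 to 31.1 in sham prostates. Ly75 had 154 to 217 at 14 days, apart from 96.3 to 151 in the testosterone group and 113 to 146 in sham prostates. The other genes below the filter, Zbtb46, Ccr7, Itgae and Clec4a2, overlapped between the 14-day and sham groups. Their means were 64.8, 35.0, 71.1 and 42.0 at 14 days and 28.7, 31.8, 49.6 and 31.0 in sham prostates. The summed signal of the 11 genes, to which Fscn1 and Flt3 contributed most, was 2491 to 3418 in sham prostates, 2758 to 3492 at 3 days, 2642 to 3050 at 14 days and 2034 to 2642 in the testosterone group. Among B cell and plasma cell genes 4 of 9 were tested. At 14 days against sham Ighm and Jchain, encoding the immunoglobulin mu and joining chains, had log2 changes of 2.35 and 1.55 and Ms4a1, encoding CD20, had a log2 change of -0.75. Cd79a was not called (log2 change -0.71). These were 2 genes called higher and 1 lower, against 28.6% and 24.3% over all probe sets tested. Below the filter, Cd79b, Cd22, Blk, Pax5 and Cr2 overlapped between the 14-day and sham groups. The B cell sum was 1293 to 1698 in sham prostates, 1397 to 2219 at 3 days, 2137 to 7289 at 14 days and 1160 to 2051 in the testosterone group. Ighm contributed most to the 14-day sums, with signals of 1183 to 5273. Its highest signal and the sum of 7289 were both from replicate 1.

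Of 10 measured genes of T and natural killer cells 1, Cd4, was tested and it was not called, and Cd3e had at most 68.2 on any array. The sum of these 10 genes was 484 to 828.8 in sham prostates, 416 to 551 at 3 days, 479 to 678 at 14 days and 310 to 549 in the testosterone group. Of 8 pan-leukocyte genes 6 were tested, of which 4 rose at 14 days against sham and 5 were lower in the testosterone group than at 14 days, against 28.6% called higher and 26.6% called lower over all probe sets tested. Ptprc, encoding CD45, was below the filter, with 164 to 324 at 14 days and 8.8 to 54.3 in sham prostates. Lists of cells other than leukocytes also moved. Of 4 endothelial genes tested 3 rose at 14 days against sham and 3 were lower in the testosterone group than at 14 days, with median log2 changes of 1.36 and -0.92 and summed signals over 7 genes of 1782 to 2373 at 14 days and 581 to 996 in sham prostates. The luminal epithelial sum of 10 genes was 34716 to 51019 at 14 days and 48797 to 58650 in sham prostates, with 4 genes called higher and 3 lower. Pbsn and Msmb had means of 4903 and 134 at 14 days and 16904 and 10523 in sham prostates. Krt8, Krt19, Epcam and Cldn7 had higher means at 14 days (7107, 11936, 2450 and 2267) than in sham prostates (3605, 6303, 1496 and 1339). The sum therefore mixes genes that moved in both directions. Of 4 basal epithelial genes 1 was tested, Trp63, with a log2 change of 0.81 at 14 days against sham. The part of any of these cell types in the class II signals was not tested.

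**Figure D5:**
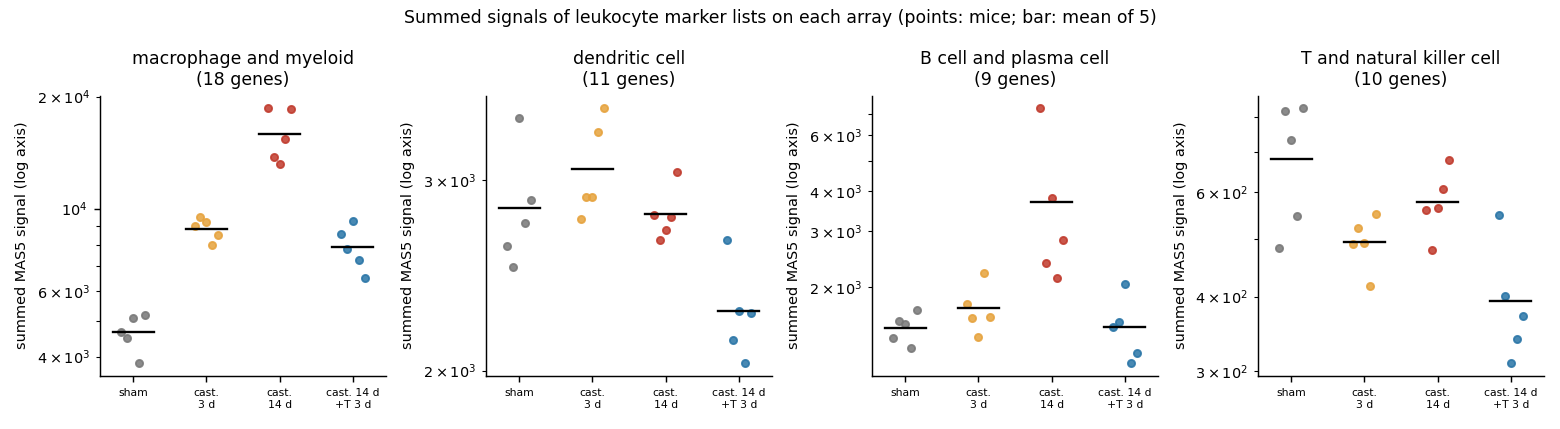
Summed signal (log axis, arbitrary units) of 4 leukocyte marker lists on each array, with points for mice and bars for means of 5; cast. stands for castrated and +T for the testosterone pellet. The macrophage and myeloid sums of all 14-day arrays (13160 to 18593) lie above those of the other groups, and the dendritic cell sums of the sham, 3-day and 14-day groups overlap.

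The genes most like the 6 class II genes were sought among the tested probe sets with 1 symbol, by Pearson's r with the mean log2 signal of the 6 genes over the 20 arrays. The 10 highest were Tgfbi, Ctss, Laptm5, Psmb10, Plbd1, Fgl2, AW112010, Lgals3, Zfand5 and Ly86, with r of 0.94 to 0.96. Ctss is also in the pathway list above. With the group means removed, r lay between -0.18 for Lgals3 and 0.66 for Laptm5, so the likeness over all arrays was mostly one of group means. The 10 genes were picked for their likeness on these same arrays, so a difference between 14 days and sham followed from the choice. Lgals3, encoding galectin 3, had a mean signal of 1550 ± 151 at 14 days and 181 ± 31.5 in sham prostates, a log2 change of 3.02. Laptm5, a lysosomal membrane protein gene of leukocytes, averaged 1390 ± 328 at 14 days and 481 ± 58.2 in sham prostates. Psmb10, the remaining inducible subunit gene of the immunoproteasome, averaged 1484 ± 204 at 14 days and 456 ± 92.6 in sham prostates.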

How the data were processed

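Values are the deposited intensities, 1 signal per probe set and array not log transformed. They were made with MAS5, version 5.0, per the submitters' processing notes. Means without the lowest and highest probe sets of each array lay close to 500, so the arrays had been scaled. The number of arrays limits the precision. Of 12488 probe sets 66 controls were left out. Symbols came from the platform annotation, and of 10833 probe sets with 1 symbol 10817 were found in a RefSeq gene table (GRCm38.p6), which changed 0 symbols.

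Signals were analysed as log2 of signal plus 12.7, the 10th percentile of all values, so folds of dim genes are understated. Probe sets above 191 on at least 5 of 20 arrays (6911, 55.6%) were fitted in 1 limma model (3.58.1, R 4.3.3; lmFit, contrasts.fit, eBayes) of 4 groups and 5 contrasts, two-sided, adjusted over all probe sets of a contrast. Fold values were back-transformed from log2 changes. Where a gene outside the 6 had several probe sets, the brightest was used. Groups came from the labels, which name no batch or pair. The genes and lists were chosen with earlier results of these data known. All members were named, as were genes of the fixed pathway and marker lists, their chromosome neighbours and the 10 most alike. Comparisons share groups. The fit was tested on simulated data. Alternatives were 2 pseudocounts, 2 filters, 2 normalizations, array weights, fits of the compared groups alone, leaving out each array, and, added after the data were seen, leaving out 4 arrays of high Gapdh ratio.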

Additional observations from a re-analysis of the deposited data

Results flagged for a closer look

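In 2 of 28 groups of 5 signals, 1 array stood apart from the other 4 by Dixon's test, and chance marks about 1 group in 20. Both were groups of H2-DMb1. Replicate 4 of the group castrated for 3 days had a signal of 333, against 205 to 227 on the other 4 arrays, a gap of 0.793 of the group's range. Replicate 4 of the sham group had a signal of 137, against 59.2 to 71.1 on the other 4 arrays, a gap of 0.792 of the range. Replicate numbers follow accession order and do not link these mice. The log2 change of H2-DMb1 at 3 days against sham was 1.36 without the 3-day array and 1.66 without the sham array, against 1.48 with both, and it was called each time (adjusted p = 0.000313 and 1.05e-05 in limma). H2-DMb1 was below the filter signal on every sham array, so these calls against sham support nothing by themselves.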

How the results depend on the processing

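The 6 tested genes gave 30 log2 changes over the 5 comparisons, each recomputed under 29 alternatives. Of the 870 values 861 kept their direction and their side of the threshold. The 8 that turned direction were all of H2-Eb1 in the testosterone group against sham, whose value of -0.01 was never called. It became 0.16 with arrays centred on their median, 0.000747 under quantile normalization, and lay between -0.0905 and 0.0643 when 1 array was left out, above 0 for 6 of the 20 arrays. H2-DMb1 in the testosterone group against 14 days of castration lost its call under quantile normalization (-0.57, adjusted p = 0.0564), which left 5 of 6 genes called lower there. Without the filter the dimmer H2-DMa probe set joined the tests. The count of 46 unequal changes was 28 without the 4 arrays of high Gapdh ratio, where fewer arrays raise the smallest p to 0.1 (3 against 3) or 0.0179 (3 against 5), and 46 to 49 under the other settings tried. No paired analysis was possible because the labels carry no replicate numbers. H2-DMb1 and the probe sets below the filter are the least certain, being close to the dim end of the signals.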
